A study of Mus musculus with 2 samples.

Results

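The nuclear subunits of oxidative phosphorylation are the proteins of the 5 enzyme complexes of the inner mitochondrial membrane that the nuclear genome encodes. Members were taken by gene symbol among protein-coding genes of the GENCODE M21 annotation. The accepted symbols were the numbered Ndufa, Ndufb, Ndufc, Ndufs and Ndufv genes with Ndufab1, the Sdha to Sdhd genes, and every symbol beginning with Uqcr, Cox4i, Cox5, Cox6, Cox7, Cox8 or Atp5. This gave 85 genes of 55536 in all, of which 36 belong to complex I, 4 to complex II, 8 to complex III, 18 to complex IV and 16 to complex V. The remaining 3 are no subunits: Cox7a2l, a factor of respiratory supercomplexes, Atp5s, known as coupling factor B, and a readthrough entry that shares the symbol Atp5o with the subunit gene. A further 8 annotated processed pseudogenes with matching symbols were not members and held at most 3.07 counts each. Cyc1, Usmg5 and Atpif1, which encode cytochrome c1, a small ATP synthase subunit and the ATP synthase inhibitor, lie outside the symbols accepted.

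The samples were left cerebral cortex of 2 adult male mice of the strain B6CASTF1/J, the first-generation hybrid of B6 with Cast, aged 8 to 10 months. No treatment, genotype or tissue was contrasted. Each was a total RNA library from 300 ng of RNA, with an ERCC spike-in set whose name refers to stranded, ribosomal RNA reduced libraries. Animal 2 is called replicate 1 and animal 4 replicate 2, and ± marks the SD over these animals throughout (n = 2). The labels number the animals differently and give both 1 donor name, so their being separate mice rests on those numbers.

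Oxidative phosphorylation passes electrons of NADH through complex I (NADH dehydrogenase) and those of succinate through complex II (succinate dehydrogenase) to ubiquinone, then through complex III (the cytochrome bc1 complex) and cytochrome c to complex IV (cytochrome c oxidase). Protons pumped on the way drive complex V, the ATP synthase. Core subunits carry the redox centres or catalytic sites, and supernumerary subunits surround them. Complexes I, III, IV and V join nuclear subunits with subunits encoded in mitochondrial DNA, whereas complex II is wholly nuclear. The brain relies on this pathway for most of its ATP.

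The libraries held 26925514 and 30143684 expected counts in replicates 1 and 2, of which the members took 145417 and 161355. The members made up 1.14% of all TPM in each animal, where TPM is abundance per transcript length, scaled to the same total in each library. Neuronal markers summed to 4209 and 4468 TPM over 6 of 6 detected genes. In markers of tissue beside the cortex the libraries differed: 9 choroid plexus markers summed to 979 and 111 TPM, and 10 striated muscle markers to 16.5 and 56.8 TPM, in replicates 1 and 2. No testis germ cell marker reached 1 TPM in both animals.

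Nearly all members were well expressed. Of 85 members, 81 (95.3%) had 1 TPM or more in each animal, against 59.0% of all protein-coding genes. The median member stood at 110 ± 2.31 TPM, against 3.99 ± 0.0707 TPM for all protein-coding genes. This median lay at the 96.3rd percentile of protein-coding genes. The 4 members below 1 TPM in an animal were Cox8b, Cox7b2, Cox8c and the Atp5o readthrough entry. In tissue RNA, fewer cells of a type and less RNA per cell cannot be told apart, so these are levels per tissue.

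By complex, the median subunit stood at 162 ± 1.04 TPM in complex IV, 155 ± 9.29 TPM in complex III and 145 ± 7.91 TPM in complex V. Complex II had 93.1 ± 0.297 TPM and complex I 88.8 ± 1.30 TPM. Values of single animals overlapped between complexes III and V only, at 161 and 148 TPM against 150 and 139 TPM in replicates 1 and 2. Summed over their genes, complex I held 3530 ± 29.1 TPM, complex V 3141 ± 16.6 TPM, complex IV 3095 ± 17.4 TPM, complex III 1133 ± 22.8 TPM and complex II 399 ± 0.0636 TPM. Levels of subunits of 1 complex spread far more than the animals did. Among complex I genes the SD of log2 TPM was 0.60, and the highest subunit exceeded the lowest 8.81-fold, while the median subunit differed 1.04-fold between animals. The lowest was Ndufb4, whose level is uncertain. The second quantification gave Ndufb4 72.7 and 117 TPM in replicates 1 and 2, so the 8.81-fold is uncertain too.

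In complex I, Ndufa3, a small supernumerary subunit, led with 274 and 283 TPM in replicates 1 and 2. Ndufb8 followed with 193 and 170 TPM and Ndufb9 with 154 and 159 TPM, both subunits of the membrane arm. Each of these was higher than the next in both animals in the first quantification. In the second, Ndufa3 had 264 and 228 TPM in replicates 1 and 2, and Ndufb8 211 and 246 TPM. Ndufb9 had 152 and 244 TPM there and Ndufs3 197 and 231 TPM, so the order of the leaders is not settled. In the first quantification, Ndufb4, also of the membrane arm, was lowest at 27.4 and 35.8 TPM. The 7 core subunits of the peripheral arm had a median of 118 ± 2.97 TPM, against 85.9 ± 3.97 TPM for the 29 supernumerary ones, with overlapping ranges of means. Ndufs8, an iron-sulfur protein, was the lowest core subunit at 59.0 and 62.4 TPM. Ndufv1, which binds FMN and NADH, stood at 116 and 121 TPM. Ndufab1, which is also the mitochondrial acyl carrier protein, stood at 126 and 111 TPM. Of 35 neighbouring pairs in the order of complex I levels, 20 overlapped between animals, so the middle of the order is not resolved.

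Complex II was resolved throughout in the first quantification. Sdha, the flavoprotein that oxidises succinate, stood at 163 and 161 TPM in replicates 1 and 2. Sdhc, a membrane anchor, stood at 101 and 96.2 TPM, and Sdhb, the iron-sulfur subunit, at 85.3 and 90.4 TPM. The other anchor, Sdhd, was lowest at 51.1 and 51.4 TPM. None of the 3 neighbouring pairs overlapped between animals, but the second quantification turned the order of Sdhc (104 and 114 TPM) and Sdhb (80.8 and 126 TPM) in replicate 2. The anchors Sdhc and Sdhd, which bind haem together, thus stood at different levels, beyond the animals' spread.

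In complex III, Uqcrh, the hinge protein, led with 208 and 185 TPM in replicates 1 and 2. Uqcrq, a small subunit next to cytochrome b, had 187 and 188 TPM, so the 2 overlapped. Uqcrc1, a core protein, stood at 167 and 175 TPM. Uqcrfs1, the Rieske iron-sulfur protein that carries electrons to cytochrome c1, was lowest at 60.2 and 61.8 TPM, below every other subunit in both animals. Small supernumerary subunits filled much of the top: Uqcr11 stood at 165 and 153 TPM and Uqcr10 at 157 and 144 TPM.

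Complex V held the highest member of all. Atp5b, the catalytic beta subunit, stood at 851 and 854 TPM in replicates 1 and 2. Atp5a1, the alpha subunit that alternates with beta in the same ring, stood at 351 and 366 TPM. Part of this gap lay in noncoding transcripts: coding transcripts held 60.7% and 62.7% of Atp5b TPM, against 98.2% and 98.5% for Atp5a1. The transcripts Atp5b-201 and Atp5a1-201, both coding, stood at 516 and 535 TPM and at 343 and 359 TPM. Gene counts were 18661 and 20937 for Atp5b and 14446 and 16415 for Atp5a1. The other F1 subunits were lower, with Atp5d (delta) at 152 and 140 TPM, Atp5e (epsilon) at 140 and 121 TPM and Atp5c1 (gamma) at 115 and 123 TPM. Of the peripheral stalk, Atp5h (subunit d) led with 219 and 222 TPM, and Atp5f1 (subunit b) was lowest at 110 and 114 TPM. In the membrane part, Atp5mpl stood at 173 and 185 TPM and Atp5k (subunit e) at 45.02 and 50.5 TPM.

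Complex IV was split into abundant and rare genes. Cox4i1, the subunit 4 of most tissues, stood at 522 and 519 TPM in replicates 1 and 2. Cox8a stood at 483 and 469 TPM and Cox6b1, which faces the intermembrane space, at 300.2 and 346 TPM. Ndufa4, once placed in complex I and since assigned to complex IV, stood at 305 and 316 TPM. The 11 genes other than tissue-restricted isoforms ranged from 145 to 520 TPM by mean, with a median of 254 ± 1.29 TPM. Cox6b1 TPM rested partly on the mix of its transcripts: its counts of 2588 and 2987 gave a log2 ratio of -0.04, replicate 1 over replicate 2.

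Several subunits exist as paralogs whose use differs between tissues. In mammals, Cox6a2, Cox7a1 and Cox8b are the forms of heart and skeletal muscle, Cox4i2 is known from lung and vascular mural cells, and Cox6b2, Cox7b2 and Cox8c are known from testis. All 7 were rare in cortex. Together they summed to 10.1 and 11.5 TPM in replicates 1 and 2, against 3072 and 3096 TPM for the other complex IV genes.

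Cox4i2 was listed at 1.00 TPM in each animal, from 11 and 12 counts in replicates 1 and 2. It made up 0.192% ± 0.000861 of the TPM of its family, with exact 95% binomial intervals of its share of counts of 0.0971% to 0.348% and 0.102% to 0.346%. Cox6a2 was at 2.06 and 2.07 TPM, or 0.640% ± 0.0181 of family TPM. These intervals, and the limits for counts of 0, cover counting error only.

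Cox6b2 was at 3.07 and 4.01 TPM, the highest of the 7 by mean, and took 1.08% ± 0.0941 of its family. Cox7a1 was at 3.54 and 2.03 TPM in replicates 1 and 2, or 1.76% ± 0.608 of its family, from 19 and 12 counts. Its intervals of the share of counts, 0.796% to 2.05% and 0.409% to 1.38%, overlapped.

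Cox8b had 2 and 9 counts, or 0.44 and 1.81 TPM, in replicates 1 and 2. Cox8c had 0 and 1 counts, and Cox7b2 had 0 and 4 counts. For replicate 1, where 3 counts correspond to 0.122 CPM, a count of 0 allows shares of up to 0.222% of the Cox7b family and 0.0963% of the Cox8 family, by the exact intervals. The order among these 3 genes cannot be read at this depth.

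Markers of the tissues that use these isoforms were set beside them. The 10 striated muscle markers were all higher in replicate 2, with a median log2 ratio of replicate 1 over replicate 2 of -1.92. Cox8b was also higher in replicate 2, Cox6a2 was level and Cox7a1 was higher in replicate 1. The summed muscle markers, 16.5 and 56.8 TPM in replicates 1 and 2, thus moved in the direction of Cox8b, whose 2 and 9 counts are few, and their part in it was not tested. The 8 mural cell markers summed to 69.8 and 73.3 TPM, and Pvalb, which marks the interneurons in which Cox6a2 is known from mouse brain, stood at 47.8 and 47.1 TPM. The list of 5 interneuron genes that holds it summed to 432 and 482 TPM, mostly Gad1 and Gad2, which all GABAergic neurons share. Of 7 testis germ cell markers 6 had no counts in either animal, and 5 brown fat markers summed to 1.68 and 1.55 TPM, mostly Cidea at 1.34 and 1.39 TPM, with Ucp1 at 2 and 0 counts.

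**Figure D1:**
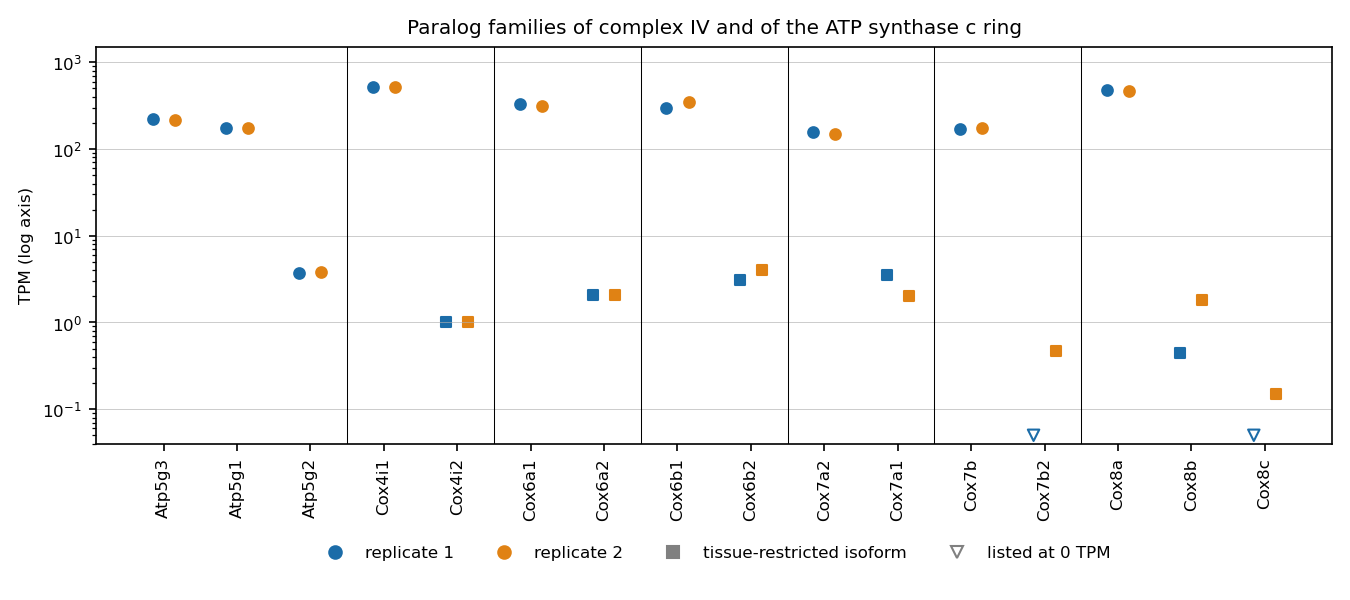
TPM of each paralog in families with more than 1 member, on a log axis, with replicate 1 left of replicate 2, squares for tissue-restricted isoforms and open triangles for genes listed at 0 TPM. In the 6 complex IV families the general form stands at or above 150 TPM and each tissue form at or below 4.01 TPM in both animals, while Atp5g2 stands at 3.75 and 3.85 TPM beside its paralogs.

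The c ring of ATP synthase showed a paralog pattern that depended on the quantification. Its 3 genes, Atp5g1, Atp5g2 and Atp5g3, encode the same mature protein with different import sequences. In the second quantification, made from the reads themselves, Atp5g3 took 46.2% ± 3.61, Atp5g1 32.0% ± 2.22 and Atp5g2 21.8% ± 5.83 of family TPM. In the first, which is the source of the levels above and was made from alignments, Atp5g3 took 55.0% ± 0.771, Atp5g1 44.1% ± 0.748 and Atp5g2 0.963% ± 0.0228. In expected counts of the first quantification, Atp5g2 had 40.01 and 44.96 in replicates 1 and 2, while the transcribed processed pseudogene Gm10175 at chr7:23946646-23947290 (mm10) had 1065 and 1290. The alignment of the Gm10175 transcript to Atp5g2 had 100% identity over all 645 of its bases. Reads of the 2 genes cannot be told apart within this stretch, and the level of Atp5g2 is uncertain.

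Such copies were then searched for every member. Transcripts of other genes that matched a coding transcript of a member at 95% identity or more, over at least 150 bases, were taken as near-identical copies. There were 44 copies of 23 members. In the first quantification 20 copies had no counts in either animal, the copies of 11 members held at least 10 counts in both, and those of 8 members held at least 10% of the counts of gene and copies together. By the second quantification 2 members reached 10% in both animals, Ndufa12 and Ndufab1. For Ndufab1 the copies held 17.4% and 18.6% there in replicates 1 and 2, against 0.486% and 0.259% in the first. Over all members, the copies took 0.8005% and 0.3625% of these counts in replicates 1 and 2 by the second quantification and 3.02% and 3.04% by the first.

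Ndufb4, the lowest complex I subunit, was the second most affected. It had 236 and 344 expected counts in replicates 1 and 2, against 564 and 625 for the processed pseudogene Ndufb4c on chromosome 15, identical over 390 bases. In the second quantification gene plus copy had 790 and 817 counts, of which 747 and 817 were on Ndufb4 itself, against 800 and 969 for the pair in the first. The level of Ndufb4 and its place at the bottom of complex I are uncertain.

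Cox7c, a small complex IV subunit, had 1153 and 1104 counts in replicates 1 and 2, and its copies 999 and 1015, or 46.4% and 47.9% of the total. Most lay on Gm12338, a processed pseudogene at chr11:75599763-75599954 (mm10) on the minus strand, with 879 and 870 counts. Its 192 bases equal the coding sequence of Cox7c, start to stop codon, and are shown because reads from within them fit either gene.
Gm12338: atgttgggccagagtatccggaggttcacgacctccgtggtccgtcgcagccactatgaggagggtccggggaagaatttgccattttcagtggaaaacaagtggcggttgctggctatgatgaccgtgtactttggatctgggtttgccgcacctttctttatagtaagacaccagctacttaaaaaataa
The second quantification gave this copy 0 counts in both animals and Cox7c 1993 and 1921. Because the copy is short, its 879 and 870 counts were listed as 543 and 494 TPM in replicates 1 and 2, above Cox7c itself at 152 and 138 TPM.

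Atp5l, subunit g of ATP synthase, had 1079 and 1219 counts in replicates 1 and 2, and its copies 597 and 703. Nearly all were on Gm10221 on chromosome 5, identical over 309 bases. For Ndufs5, Atp5h, Cox7a2l and Ndufa12 the copies held between 11.2% and 21.6% of the counts. These matches were not perfect: they spanned 319 to 485 bases at 98.0% to 99.5% identity. Cox5b, a zinc-binding complex IV subunit, had 1522 and 1666 counts and its copy Gm11273, annotated as protein coding on chromosome 13, 107 and 123. The coding sequences of Cox5b and Gm11273 differed at 3 of 390 bases. Coding bases 84 to 143 of each, on the strand of the gene and with a differing base in capitals, show how little separates them.
Cox5b: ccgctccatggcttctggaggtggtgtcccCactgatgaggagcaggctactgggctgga
Gm11273: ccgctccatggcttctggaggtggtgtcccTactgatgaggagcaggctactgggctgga
A read away from the differing bases fits both genes, whereas a read across them can be placed.

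**Figure D2:**
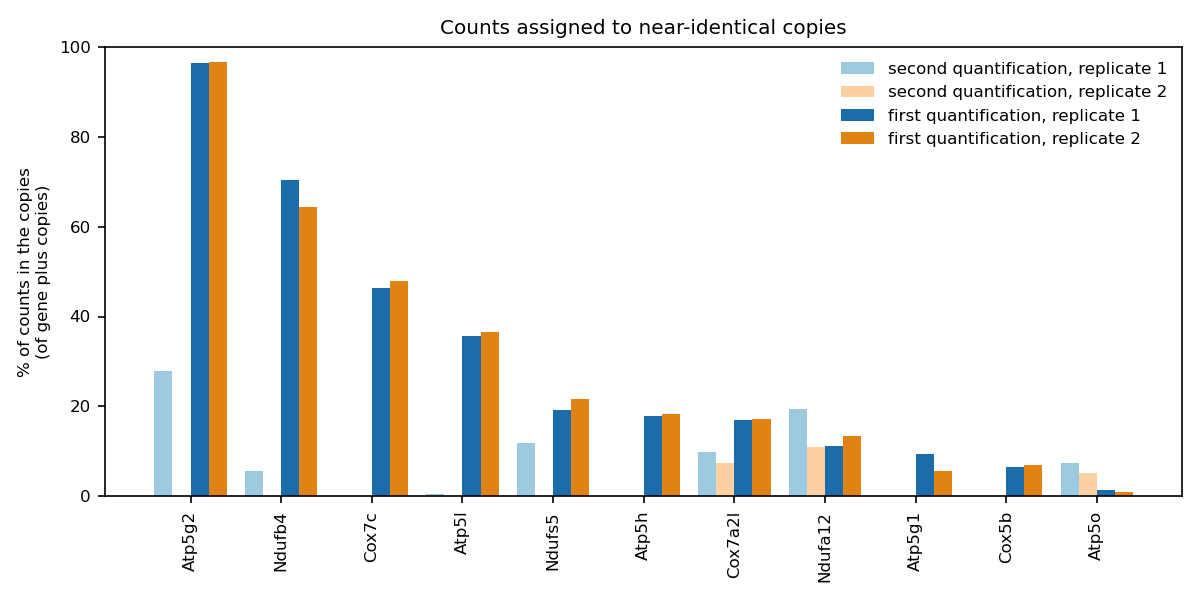
Percent of expected or estimated counts assigned to near-identical copies, out of gene plus copies, for the 11 members whose copies held at least 10 counts in both animals. Bars from left to right are the second quantification and then the first, replicates 1 and 2 in each, and the first reaches 96.4% and 96.6% for Atp5g2.

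The quantifications gave close medians over all members and unequal ones by complex. With TPM rescaled over protein-coding genes, the median member stood at 217 ± 1.27 TPM in the second quantification and 219.9 ± 0.389 TPM in the first. For complex IV it was 465 ± 38.2 TPM in the second and 325 ± 8.35 TPM in the first. The members with the largest difference on log2(TPM + 1) were Atp5g2 (4.62, second over first), the Atp5o readthrough entry (-1.57), Ndufb4 (1.38), Cox7c (1.07) and Cox7b2 (0.69). The readthrough entry, which shares 243 exonic bases with Atp5o and 287 with Donson, was at 2.66 and 0.83 TPM in replicates 1 and 2. The Atp5o subunit gene, the oligomycin sensitivity protein of the peripheral stalk, stood at 190 and 195 TPM.

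The quantifications were also compared by gene length. Members are short: their median gene length was 658 bases, against 2520 bases for protein-coding genes at 1 TPM or more. Among the 15 members at 1 TPM or more and under 500 bases, the median ratio of second to first TPM was 1.14 in replicate 1 and 0.792 in replicate 2. Among the 18 of 1000 bases or more it was 0.964 and 0.953. The ratio of short subunits therefore differed between the animals, and the part of length in it was not tested.

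The transcript tables assign each gene's reads to its annotated transcripts, and not all of these are annotated as coding. Over the 81 members at 1 TPM or more, the median share of TPM on protein-coding transcripts was 98.1% and 97.5% in replicates 1 and 2, against 90.957% and 89.965% over all protein-coding genes at that level. A share of 90% or more was reached by 51 of 81 members (63.0%) in each animal, against 51.9% and 49.9% of all such genes. The leading coding transcript was the same in both animals for 72 of 81 members in the second quantification and 81 of 81 in the first.

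Ndufa3, the leader of complex I in the first quantification, also had the lowest coding share there. Only 3.35% and 5.58% of its TPM in replicates 1 and 2 lay on coding transcripts, at 9.18 and 15.8 TPM. Transcripts of the class nonsense-mediated decay, whose coding frame is predicted to trigger degradation, took 95.6% and 93.4%. The second quantification gave Ndufa3 coding shares of 0.818% and 3.04%. Cox7b at 0.681% and 0.811% and Ndufc1 at 0.683% and 2.06% were lower still there. Some shares differed widely between replicates 1 and 2 there, at 69.8% and 0% for Uqcr11 and 75.7% and 5.24% for Ndufa7. Ndufa3-204, the transcript that carried nearly all of the gene's TPM, is 343 bases long, so its 1119 and 1229 counts translate into 262 and 264 TPM.

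In the first quantification, the next 4 members by coding share were Atp5j, Ndufs4, Ndufb4 and Cox5b. For Atp5j, coupling factor 6 of the peripheral stalk, 13.7% and 11.2% of TPM lay on coding transcripts in replicates 1 and 2, and 85.8% and 88.1% on transcripts annotated as retaining an intron. For Ndufs4, a complex I subunit mutated in mouse models of Leigh syndrome, the coding share was 18.8% and 19.3%. For Ndufb4 it was 20.6% and 21.5%, and for Cox5b 23.26% and 26.02%. Several of these shares were not settled, since the second quantification gave Cox5b 29.9% and 86.7% in replicates 1 and 2, Atp5j 34.7% and 52.0%, and Ndufb4 42.6% and 34.6%. Exons of Atp5j overlap those of Gabpa, a subunit of a factor known to regulate these genes, on the opposite strand over 397 bases, and Gabpa had 652 and 598 counts.

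**Figure D3:**
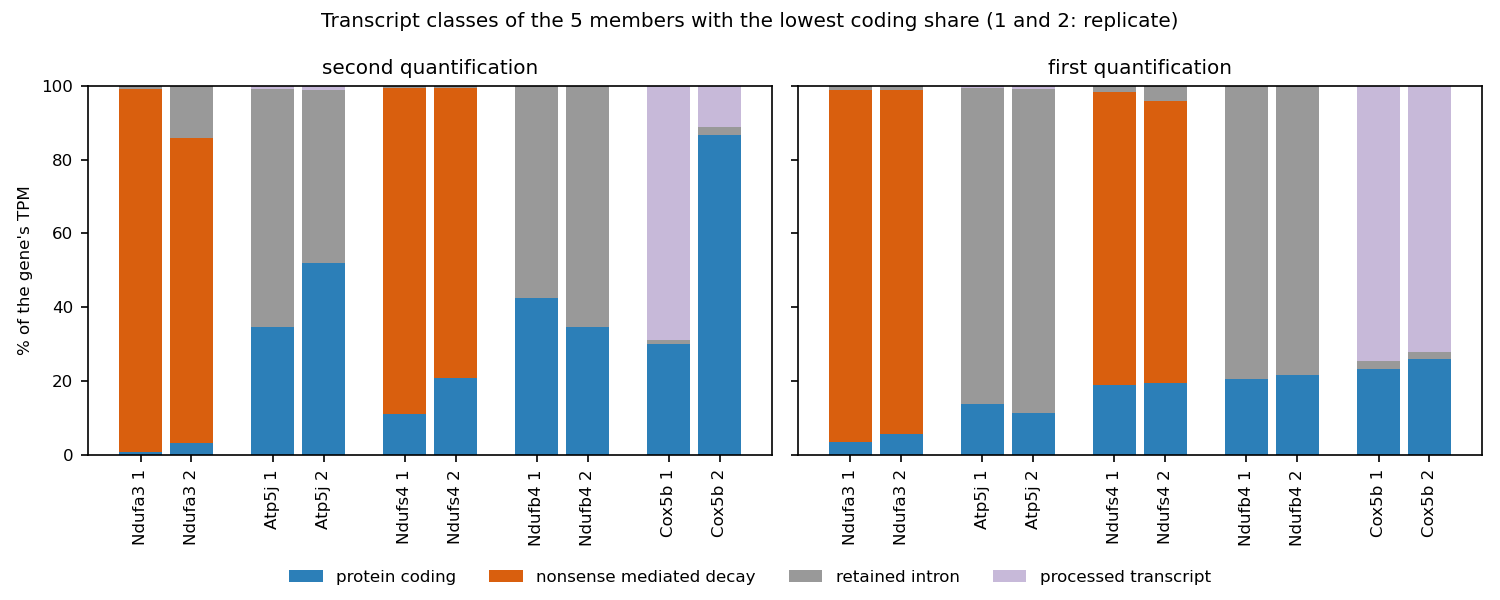
Percent of each gene's TPM on transcripts of 4 annotated classes for the 5 members with the lowest coding share in the first quantification. Replicate 1 is left of replicate 2, with the second quantification on the left and the first on the right. Ndufa3 lies on nonsense-mediated decay transcripts for 98.3% and 82.9% in the second and 95.6% and 93.4% in the first, and the coding share of Cox5b is 29.9% and 86.7% in the second.

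Gene-level TPM can move with this assignment. Ndufa10, a complex I subunit singled out after its values were seen, was at 78.4 and 109 TPM in replicates 1 and 2. Its counts, 1818 and 2236, gave a log2 ratio of -0.13. A processed transcript of 248 bases, Ndufa10-205, had 2.55 and 29.1 TPM in these animals, from 6.64 and 82.6 counts, and 0 TPM in the second quantification. The difference in Ndufa10 TPM thus lay mostly in that transcript.

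Exons of 16 members overlap by at least 50 bases those of a gene on the opposite strand with a mean of 10 counts or more. The share over all protein-coding genes was not computed, so whether members differ from other genes in this cannot be read. A directional kit is named in the protocol link, but whether the counting used strand is not given in the sources used here. Without it, reads from these stretches cannot be told apart. The other gene had more counts than the member in Ndufb2 (with Braf), Cox6c (with Vps13b), Atp5d (with Cbarp) and Ndufb11 (with Rbm10). For Ndufb2, 742 and 716 counts stood against 6201 and 6986 for Braf, with 146 exonic bases shared.

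Promoter sequences were examined for what the subunits share. RefSeq promoter windows of 300 bases on GRCm38.p6, 250 before the annotated start and 50 from it, were found for 69 members in 74 windows, 67 by symbol and 2 by synonym. Among those not matched were Atp5a1, Atp5mpl, Cox4i1, Cox4i2, Cox6a2, Cox6c, Cox8c, Ndufa2, Ndufb9, Ndufs1, Sdhc, Uqcrb, Uqcrc2, Uqcrq and the readthrough entry. The windows of members had a median GC content of 57.5% and 19 CpG dinucleotides, against 52.7% and 7 over all 32851 windows and 56.3% and 13 over windows of protein-coding genes.

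NRF1, the ETS factor GABP and YY1 are known as regulators of respiratory subunit genes. Their core motifs were searched on both strands as exact letters. The NRF1 core GCGCATGCG, which overlaps its own reverse complement, was in 8 of 74 windows of members (10.8%), against 1.75% of all windows and 2.35% of those of protein-coding genes. The ETS core CCGGAAG was in 16 (21.6%), against 8.86% and 11.6%, and the YY1 core AAGATGGC in 10 (13.5%), against 2.75% and 3.05%. A TATA box, TATAAA, was in 8 (10.8%), against 13.6% and 12.6%. At least 1 of the NRF1, ETS and YY1 cores was in 29 member windows (39.2%), against 12.5% of all windows and 15.8% of those of protein-coding genes. These are matches of letters, and the motif shares were not tested.

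In 8 of the 10 members with a YY1 core it began 23 to 39 bases after the start, counted as base 1. Over all windows that hold the core, it began 20 to 40 bases after the start in 201 of 903 (22.3%), and over those of protein-coding genes in 181 of 649 (27.9%), a span chosen after the members' positions were seen. These were Ndufa3, Ndufc1, Atp5j2, Ndufs7, Ndufa9, Ndufs6, Ndufs4 and Ndufb8. Of the tissue-restricted isoforms, Cox4i2, Cox6a2 and Cox8c had no window. None of the 4 windows of the others held an NRF1, ETS or YY1 core, against 15.8% with at least 1 over protein-coding genes. With 4 windows, this does not set these isoforms apart from other genes. Of these windows 2, of Cox8b and Cox7b2, held the letters TATAAA, against 12.6% over protein-coding genes. These matches began at base 5 in Cox8b and at base -221 in Cox7b2, with the annotated start as base 1. Whether either acts as a TATA box was not tested. The NRF1 core was found in windows of Atp5g2, Atp5k, Atp5l, Cox6a1, Ndufa11, Ndufa8, Uqcr11 and Uqcrc1.

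Promoter windows of 6 members show these patterns, each on the strand of its gene, 5′ to 3′, with matches of any of the 4 motifs on either strand in capitals. Atp5b (chr10:128083057-128083356, plus strand) is the highest member and held no match. Uqcr11 (chr10:80406772-80407071, minus strand) held the NRF1 and ETS cores, and Cox6a1 (chr5:115348909-115349208, minus strand) the same. Atp5j (chr16:84834927-84835226, minus strand) held the YY1 and ETS cores. Atp5j had 2 windows, and the one with more kinds of motif is shown. The general form Cox8a (chr19:7217567-7217866, minus strand) and its muscle paralog Cox8b (chr7:140900397-140900696, minus strand) are given for contrast.
Atp5b: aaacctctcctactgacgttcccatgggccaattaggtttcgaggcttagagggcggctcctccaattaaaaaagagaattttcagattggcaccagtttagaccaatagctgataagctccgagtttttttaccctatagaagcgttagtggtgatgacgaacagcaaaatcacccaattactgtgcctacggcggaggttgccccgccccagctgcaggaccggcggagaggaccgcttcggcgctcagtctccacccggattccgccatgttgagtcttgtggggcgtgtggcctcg
Uqcr11: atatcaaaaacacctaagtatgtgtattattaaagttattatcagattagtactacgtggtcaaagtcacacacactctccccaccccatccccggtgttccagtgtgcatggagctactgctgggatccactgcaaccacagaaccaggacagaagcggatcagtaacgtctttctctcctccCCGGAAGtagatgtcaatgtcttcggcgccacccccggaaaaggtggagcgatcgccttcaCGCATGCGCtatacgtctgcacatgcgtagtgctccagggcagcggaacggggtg
Cox6a1: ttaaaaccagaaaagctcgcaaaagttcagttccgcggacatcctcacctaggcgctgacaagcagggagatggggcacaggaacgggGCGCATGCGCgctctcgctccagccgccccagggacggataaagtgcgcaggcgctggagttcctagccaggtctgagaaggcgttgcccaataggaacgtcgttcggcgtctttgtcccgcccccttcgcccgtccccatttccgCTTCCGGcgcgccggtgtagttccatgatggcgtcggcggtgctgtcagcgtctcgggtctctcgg
Atp5j: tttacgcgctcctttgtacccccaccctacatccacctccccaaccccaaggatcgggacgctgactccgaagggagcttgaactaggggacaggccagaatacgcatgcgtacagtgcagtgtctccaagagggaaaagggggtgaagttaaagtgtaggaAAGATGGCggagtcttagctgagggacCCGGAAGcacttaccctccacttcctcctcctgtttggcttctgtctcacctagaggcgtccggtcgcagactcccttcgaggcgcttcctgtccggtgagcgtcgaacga
Cox8a: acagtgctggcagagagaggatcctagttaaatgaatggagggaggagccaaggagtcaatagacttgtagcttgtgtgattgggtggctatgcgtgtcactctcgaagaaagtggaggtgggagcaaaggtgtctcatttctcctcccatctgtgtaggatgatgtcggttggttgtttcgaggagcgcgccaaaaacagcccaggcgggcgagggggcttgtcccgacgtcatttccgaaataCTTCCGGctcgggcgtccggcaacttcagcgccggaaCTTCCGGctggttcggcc
Cox8b: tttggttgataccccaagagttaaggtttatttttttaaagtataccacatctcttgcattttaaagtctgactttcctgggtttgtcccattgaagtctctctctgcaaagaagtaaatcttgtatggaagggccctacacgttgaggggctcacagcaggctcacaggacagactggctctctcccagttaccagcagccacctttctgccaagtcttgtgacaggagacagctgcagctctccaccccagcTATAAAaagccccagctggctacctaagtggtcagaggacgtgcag
Cox8a held the ETS core at 2 places and 19 CpG dinucleotides, in a gene at 483 and 469 TPM in replicates 1 and 2. Cox8b, at 0.44 and 1.81 TPM, held 2 CpG dinucleotides and the letters TATAAA, which began after the annotated start, at base 5. The Atp5b window had 18 CpG dinucleotides, and Cox6a1 had 32. The median was 19 over member windows and 8.5 over the 4 windows of tissue-restricted isoforms, and 2 was the lowest number in any member window. Whether motifs or CpG content go with level over the members was not tested.

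Subunit genes also often sat head to head with another gene. A protein-coding gene on the opposite strand started within 1000 bases upstream of 19 of 85 members (22.4%), against 6.76% of all protein-coding genes and 9.58% of those at 1 TPM or more. Partners ranged from 0 TPM in both animals to 315 TPM. Ndufa7 stood at 103 and 88.7 TPM in replicates 1 and 2, and its partner Rps28, a ribosomal protein gene that starts 10 bases away, at 315 and 309 TPM. Sdhd stood at 51.1 and 51.4 TPM, beside Timm8b, a carrier of mitochondrial import, at 97.6 and 89.7 TPM. Uqcrq stood at 187 and 188 TPM, beside the oocyte growth factor Gdf9 at 0.40 and 0.83 TPM.

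Members lay on 19 chromosomes. Ndufa1, Ndufb11 and Cox7b lie on the X chromosome, of which males carry 1 copy. They stood at 76.8 ± 4.82, 63.6 ± 1.69 and 171 ± 3.27 TPM, within the range of the autosomal subunits of their complexes.

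The members differed little between the animals. With replicate 1 over replicate 2, on counts scaled by TMM (trimmed mean of M-values), the median log2 ratio of the 82 members with a mean of 10 counts or more was 0.0094, against -0.0075 for all 18284 such genes. Of these members 47 were higher in replicate 1 and 35 in replicate 2, against 8876 and 9408 of all 18284 genes. On log2(TPM + 1) the median of the members was -0.025. Among the 76 with a mean of 50 normalised counts or more, 0 differed 2-fold in either direction, against 0.861% of all genes at that level. The same count was 0 with DESeq2 size factors, spike-in scaling and the second quantification. The median member differed 1.04-fold, against 1.08-fold for all genes, and the members have more counts than most genes. An exact sign-flip test over 2 animals cannot go below 0.5, and none is reported. Choroid plexus and striated muscle markers differed at least 2-fold in 8 of 8 and 6 of 6 genes at that level, while no member did.

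Among these 76 members, the largest ratios were those of Ndufb4, Atp5e and Ndufa7. Ndufb4 had a log2 ratio of -0.37 from 236 and 344 counts in replicates 1 and 2. In the second quantification the ratio was 0.04, and with the counts of its copy added to the first it was -0.11. Atp5e had 817 and 765 counts and a log2 ratio of 0.26, and Ndufa7 761 and 722 counts and 0.24. Those of Atp5e and Ndufa7 kept their sign in the second quantification, at 0.26 and 0.37. Ndufa1, singled out after its values were seen, had a log2 ratio of 0.97 in the second quantification and 0.17 in the first, at a length of 419 bases.

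**Figure D4:**
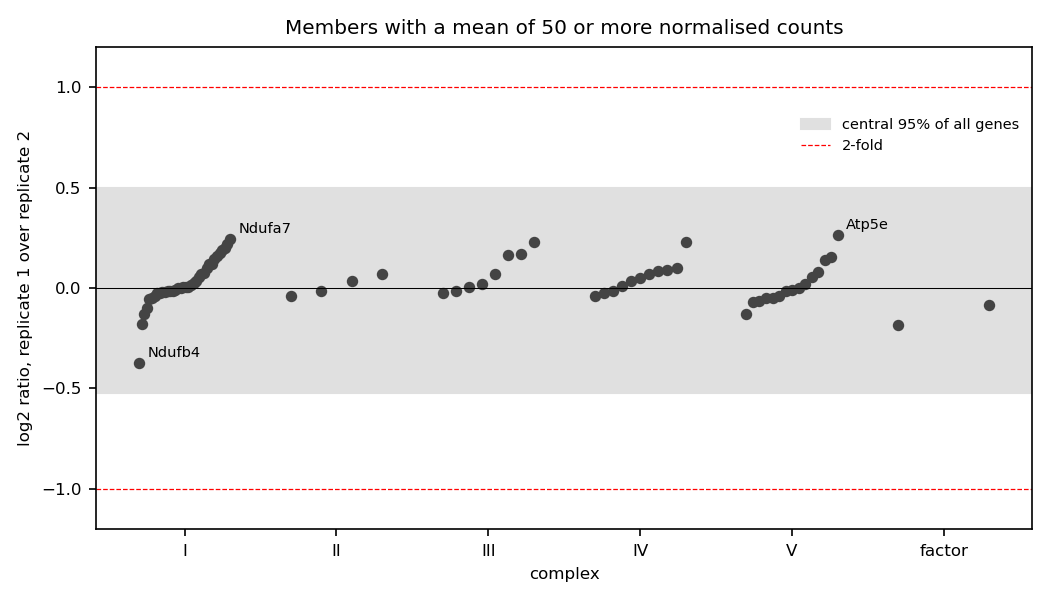
Log2 ratio of replicate 1 over replicate 2 for the 76 members with 50 normalised counts or more by mean, by complex, with the central 95% of all genes at that level in grey and 2-fold differences as dashed lines. All 76 lie inside the grey band of -0.52 to 0.50, from Ndufb4 at -0.37 to Atp5e at 0.26.

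Other genes of the pathway give the subunits a scale. Assembly factors, which build the complexes and are not part of them, were far lower: the subunits and other members had a median of 110 ± 2.31 TPM, against 14.1 ± 0.233 TPM for 48 assembly factors. All 48 reached 1 TPM in both animals. The highest were Ndufaf3 and Ndufaf7 at 30.04 ± 3.79 and 24.02 ± 3.37 TPM for complex I, Sdhaf2 and Sdhaf4 at 27.2 ± 3.88 and 23.3 ± 2.57 TPM for complex II, and Uqcc2 and Uqcc1 at 114 ± 1.17 and 42.5 ± 2.97 TPM for complex III. For complex IV they were Surf1 and Cox14 at 56.1 ± 3.36 and 51.1 ± 2.76 TPM, and for complex V Atpaf1 and Fmc1 at 35.0 ± 0.891 and 29.3 ± 0.933 TPM. The lowest of each were Nubpl, Sdhaf3, Bcs1l, Pet117 and Atpaf2, at 2.25, 2.93, 10.2, 4.35 and 11.8 TPM by mean.

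Cycs, the somatic cytochrome c, stood at 19.1 and 17.6 TPM in replicates 1 and 2, below every complex III subunit and every complex IV subunit other than the tissue-restricted isoforms, between which complexes it carries electrons. The search for near-identical copies covered members only, so Cycs and the other genes of these lists were not checked for them. Cyct, the testis form, had no counts. Tricarboxylic acid cycle enzymes, which supply NADH and succinate, had a median of 82.1 ± 3.13 TPM, with malate dehydrogenase Mdh2 at 196 ± 12.3 TPM and Suclg2 lowest at 8.76 ± 1.09 TPM. Membrane transport genes had a median of 137 ± 8.21 TPM, led by the phosphate carrier Slc25a3 at 258 ± 3.84 TPM and the outer membrane channel Vdac1 at 254 ± 7.34 TPM, with Timm23 lowest at 29.6 ± 4.87 TPM. Regulators of mitochondrial biogenesis had a median of 12.4 ± 0.170 TPM, led by Esrra at 29.1 ± 1.85 TPM and the coactivator Ppargc1a at 25.8 ± 3.64 TPM, with Tfb1m lowest at 2.73 ± 0.233 TPM. In these lists, as in the assembly factors, no gene with a mean of 50 normalised counts differed 2-fold between the animals.

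By median, the nuclear subunits stood below the mitochondrially encoded subunits of the same complexes. Single genes overlapped: mt-Nd6 had 195 and 209.9 TPM in replicates 1 and 2, below Ndufa3, and mt-Co2 had 679 and 459 TPM, in replicate 2 below Cox4i1 and Cox8a. Complex I had a nuclear median of 87.9 and 89.7 TPM in replicates 1 and 2, against 1060 and 1290 TPM for its 7 mitochondrial genes. The ratio of mitochondrial to nuclear medians was 13.2 ± 1.64 for complex I, 22.5 ± 3.65 for complex III, 32.6 ± 3.22 for complex IV and 13.0 ± 1.01 for complex V. For complex IV it was 16.2 in the second quantification, against 32.6 in the first. The complex IV ratio divides by the median of all 18 nuclear genes, 163 and 162 TPM in replicates 1 and 2. Without the 7 tissue-restricted isoforms that median was 255 and 253 TPM. The lead of complex IV over complex III in the first quantification thus rested on including these isoforms. Reads that mitochondrial genes share with nuclear copies of the mitochondrial genome were not analysed here.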

How the data were processed

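Total RNA libraries of left cerebral cortex from 2 mice were analysed from the deposited tables, as 1 group with no contrast. Per the file headers, the authors deposited expected counts, TPM and FPKM per gene, and expected counts, TPM and the percent of each gene per transcript. The build was mm10 with GENCODE M21, per the notes deposited with the files. A second deposited transcript table, made from the reads, holds estimated counts and TPM. Programs, versions and the use of strand: not given in the sources used here. Reads of Cast alleles were assigned against mm10.

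Expected counts were rounded. Entries outside the annotated genes and 356 ribosomal RNA genes were left out, giving library sizes of 24688669 and 27440152. Log2 ratios between the animals put replicate 1 over replicate 2, from log CPM after TMM scaling and a prior of 2 counts (edgeR 4.0.16). On simulated counts this step recovered 199 and 200 of 200 genes changed 3-fold and 4-fold. Changes of 2-fold were not simulated, so recovery at that limit is not known. No test gives a p-value with 2 animals. Medians by complex and shares used TPM as deposited. For comparison of the quantifications, TPM was rescaled over protein-coding genes. Near-identical copies were found with BLAST 2.17.0+ on GENCODE transcripts and had to be pseudogenes or match over at least 80% of their length. Intervals are exact 95% binomial intervals.

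Members and gene lists were chosen with earlier results of these data known. Named were the 3 highest members and the lowest of each complex, every paralog of a tissue isoform family, the 3 with the largest ratio between animals, the 5 with the largest difference between quantifications, the 5 with the lowest coding share, and the 2 highest genes and the lowest of each other list. Further genes serve as examples of a role, and a few items that the rule names are not reported here. Alternatives covered DESeq2 1.42.0 size factors, ERCC scaling, other filters and prior counts, FPKM, the second quantification and each animal alone. Tables were handled in Python 3.11.15 (scipy 1.17.1, numpy 2.4.6, pandas 2.3.3, matplotlib 3.10.9), with edgeR under R 4.3.3.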

Additional observations from a re-analysis of the deposited data

How the results depend on the processing

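The median TPM of all members was 110 as deposited, 122 in the second quantification, 219.9 when TPM or FPKM was rescaled over protein-coding genes, 112 over members at 1 TPM or more and 112 over subunits only. Adding the TPM of near-identical copies, an alternative chosen after seeing the data, gave 118. The second quantification as deposited gave 104, 106, 167, 259 and 182 TPM for complexes I to V. Its scale differs, since the median of all protein-coding genes was 4.59 TPM there, against 3.99 TPM in the first. Rescaling the first quantification over protein-coding genes gave 178, 186, 310, 325 and 290 TPM for complexes I to V. That rise is by construction, since protein-coding genes held 49.3% and 50.6% of TPM in replicates 1 and 2. Rescaled in the same way, the second quantification gave 186, 190, 302, 465 and 325 TPM, and 217 TPM for all members. Adding copies gave 94.7 TPM for complex I, 174 for complex IV and 163 for complex V, and left complexes II and III at 93.1 and 156. Without any filter on counts, 3 members differed 2-fold between the animals, Cox8b, Cox7b2 and the Atp5o readthrough entry, at means of at most 13.9 normalised counts. With 2 animals, values of either alone are the replicate values given above and are no test of stability. The family shares of Cox8b, 0.0909% and 0.384% in replicates 1 and 2, and of Cox7b2, 0% and 0.271%, differ over 1.5 times from their means. Taken alone, either animal had 82 members at 1 TPM or more, and 81 members reached it in both. The second quantification gave 1.15% for the Cox7a1 share and 11.9 for the mitochondrial to nuclear ratio of complex V. The median log2 ratio of members was 0.0094 on TMM scaling, 0.080 with spike-in scaling, 0.055 in the second quantification and -0.025 on log2(TPM + 1), so its sign is not settled. No paired analysis was possible because there is 1 group. Depth limits the tissue-restricted isoforms, which had at most 28 counts in an animal.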
